A study of Mus musculus with 9 samples.

Results

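Transcripts of 9 genes of the antiviral ADP-ribosyltransferase group were measured in mouse embryonic fibroblasts that carry a beta-actin knockout. The genes were Zc3hav1, Parp12, Tiparp, Parp9, Dtx3l, Parp14, Parp10, Parp8 and Parp11, taken by symbol and matched to the Ensembl identifiers of the count files with the GENCODE M21 annotation of GRCm38. All 9 were found among 46603 identifiers. The 3 groups were cells given poly(I:C), a mimic of viral double-stranded RNA, cells given poly(dA:dT), a mimic of foreign double-stranded DNA, and mock cells that received the lipid reagent alone. Each mimic was transfected at 10 µg/ml. All cells were of the BALB/c strain, came from embryos of day 10.5, carried the beta-actin knockout and were collected 6 h after transfection, with 3 libraries per group. Wild-type cells were not analysed here, and the labels do not say how many cell clones or embryos the line represents or whether replicates were separate cultures. The p-values therefore measure only the spread between these libraries, which may be technical.

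ADP-ribosyltransferases of the PARP family move ADP-ribose from NAD onto proteins or nucleic acids. Most members of the group described here attach a single unit of ADP-ribose, while Parp9 has little activity of its own and the protein of Zc3hav1, known as ZAP, has none. Many of these genes are induced by interferon in vertebrates, and several viruses carry macrodomain enzymes that remove ADP-ribose. ZAP binds viral RNA rich in CpG dinucleotides and directs it to decay.

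Assigned counts per library lay between 16082772 and 22382837 in poly(I:C) libraries, between 20738109 and 23185293 in poly(dA:dT) libraries and between 19826550 and 29219797 in mock libraries. Actb, the knocked-out gene, had 565 to 736, 657 to 716 and 658 to 924 counts in these groups. How much of the gene was removed is not stated in the labels, so these counts do not check the genotype. Fibroblast markers summed to 3931 to 4198, 4850 to 4974 and 5588 to 5782 CPM in the same order, and Lum was the marker at 0 counts in both treated groups. Most of these sums came from Col1a1 and Vim, at 2996 and 2265 CPM in mock. Thy1 and Dcn stood at 1.55 and 7.84 CPM in mock, and Fap and Lum had 2 counts and 1 count over the 3 mock libraries. Of the 8 fibroblast markers tested, 7 were called lower than in mock after either mimic. Macrophage markers summed to at most 10.4 CPM in any library, with Ptprc and Tyrobp at 0 in every library. Endothelial markers summed to 4.66 to 4.96 CPM after poly(I:C), 2.74 to 3.25 CPM after poly(dA:dT) and 0.789 to 1.11 CPM in mock, and epithelial markers to 8.74 to 10.6 CPM over all groups. Of 3 epithelial markers tested, Cdh1 and Krt14 were called higher after poly(I:C) than in mock, 2.27-fold and 2.03-fold at 1.40 and 1.24 CPM against 0.623 and 0.618 CPM, Krt18 was called lower, and none was called after poly(dA:dT) (edgeR, adjusted p = 0.186 to 0.277). Of 3 macrophage markers tested, 2 were called lower after poly(I:C) and 1 after poly(dA:dT). Of the endothelial markers tested, 3 of 3 were higher than in mock after either mimic, and Emcn was at 0 in all groups. The part of these cells in the results was not tested.

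After poly(I:C) all 9 genes rose over mock, from 1.69-fold for Parp11 to 28.6-fold for Parp14, and 8 of 9 rose at least 2-fold. After poly(dA:dT) 8 of 9 rose over mock, and the largest rise was 2.53-fold. All 9 were higher after poly(I:C) than after poly(dA:dT). Genes were called with edgeR's quasi-likelihood test at a Benjamini-Hochberg adjusted p under 0.05 over 14176 genes, of which 39.8% were called higher after poly(I:C) than in mock, 26.6% higher after poly(dA:dT) than in mock and 31.3% higher after poly(I:C) than after poly(dA:dT). The shares called lower were 36.3%, 26.2% and 32.1%, while none of the 9 genes had a log2 fold change below 0 in any comparison. Of the genes called after poly(dA:dT), 50.3% were higher than in mock, and 67.7% when libraries were scaled by total counts in place of TMM. The CPM of all libraries of 1 group lay above those of the other for 9, 8 and 9 of the 9 genes, and groups did not overlap in either direction for 76.8%, 57.3% and 66.1% of all genes. Rises of at least 2-fold made up 13.1%, 3.84% and 7.62% of genes, against 8, 2 and 8 of the 9. The median log2 fold change of the 9 genes was 2.00, 0.52 and 1.55 in these comparisons, and that of all genes 0.04, 0.01 and 0.00. Both comparisons with mock use the same 3 mock libraries. All 9 genes passed the filter on low counts, and the lowest count of any of them was 75. Levels are given in CPM, counts scaled to library size with TMM factors. In bulk RNA, fewer responding cells and less RNA per cell cannot be told apart.

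**Figure D1:**
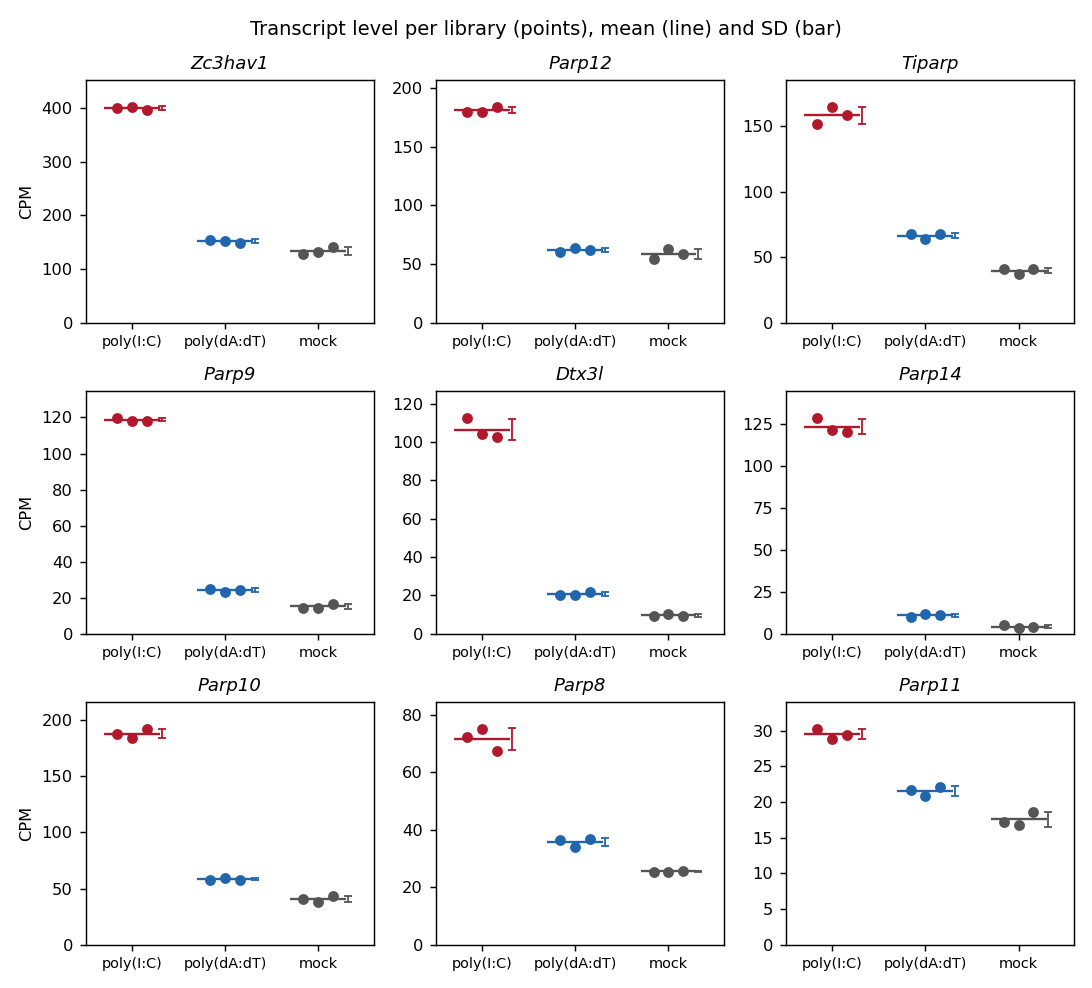
Transcript level in CPM (vertical axes, from 0) of each of the 9 genes in the poly(I:C), poly(dA:dT) and mock groups. Points are libraries, lines are means and bars are SD of 3 libraries, and the poly(I:C) points lie above all other points in every panel.

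Zc3hav1, Parp12 and Tiparp encode proteins with CCCH zinc fingers. Zc3hav1 (ENSMUSG00000029826, GRCm38 chromosome 6, 38305286 to 38354603, minus strand) stood at 401, 403 and 396 CPM after poly(I:C), at 155, 153 and 149 CPM after poly(dA:dT), and at 127, 131 and 141 CPM in mock. The 3 groups did not overlap. It rose after poly(I:C) by 1.59 ± 0.03 (SE) on the log2 scale, a 3.01-fold rise with a 95% interval of 2.91 to 3.12 (edgeR, adjusted p = 8.84e-106). After poly(dA:dT) it rose 1.15-fold, with an interval of 1.10 to 1.19 (edgeR, adjusted p = 5.73e-10).

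Parp12, a mono-ADP-ribosyltransferase (ENSMUSG00000038507, chromosome 6, 39086410 to 39118349, minus strand), stood at 180.2, 180.1 and 184 CPM after poly(I:C), at 60.0, 63.8 and 61.6 CPM after poly(dA:dT), and at 54.3, 62.5 and 58.9 CPM in mock. The poly(dA:dT) and mock libraries overlapped, and both stood apart from poly(I:C). After poly(I:C) Parp12 rose 3.11-fold, with an interval of 2.96 to 3.26 (edgeR, adjusted p = 9.52e-90). After poly(dA:dT) the log2 fold change was 0.08 ± 0.04 (SE), which was not called (edgeR, adjusted p = 0.0722), and the interval of the fold ran from 1.003 to 1.118. Without mock replicate 2, the highest of the mock libraries for this gene, the log2 fold change was 0.13 and was called (adjusted p = 0.00705). It was also called with upper-quartile factors (0.10, adjusted p = 0.0209), with total counts (0.16, adjusted p = 0.000394) and under a filter of 50 counts in 3 libraries (0.09, adjusted p = 0.0335), and over all 17 alternatives the adjusted p ranged from 0.000394 to 0.707.

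Zc3hav1 and Parp12 lie on the same chromosome, 732 kb apart, and had like profiles over the 9 libraries. The ratio of Parp12 to Zc3hav1 counts was 0.449, 0.447 and 0.465 in poly(I:C) libraries, 0.387, 0.416 and 0.413 in poly(dA:dT) libraries, and 0.427, 0.476 and 0.417 in mock libraries. The poly(I:C) ratios lay above all poly(dA:dT) ratios, with a mean log2 difference of 0.16 (two-sided exact permutation test, p = 0.1, the smallest that 3 against 3 libraries allow). Against mock the mean log2 difference was 0.05 for poly(I:C), where the groups overlapped (exact permutation test, p = 0.5), and -0.11 for poly(dA:dT), where they did not (exact permutation test, p = 0.1).

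RefSeq start windows of GRCm38.p6, from 250 bases before to 50 after a start, were matched by symbol for 6 of the 9 genes, with a second window for Parp11. Parp9, Parp10 and Parp14 had no window in the table. The windows were searched on both strands for GAAA, any 2 bases and GAAA (the core of the interferon-stimulated response element, ISRE), TTCNNNGAA (the STAT site called GAS), GGG with TTTCC after any 2 bases or with TTCC after any 3 (forms of the NF-kB site) and GCGTG (the xenobiotic response element, XRE, bound by the AHR). Of 32851 windows in the table, 3.44% held the ISRE letters, 8.3% the GAS letters, 5.56% either NF-kB form and 32.4% the XRE letters. The windows of Zc3hav1 (chr6:38354554-38354853, minus strand) and Parp12 (chr6:39118300-39118599, minus strand), shown because both genes had like profiles, held no ISRE, GAS or NF-kB letters. The capitals mark the XRE letters in reverse orientation, 54 bases before the Parp12 start. A match is a description of letters, and no match says only that they are not in this window. Both are printed 5′ to 3′ on the strand of the gene.
Zc3hav1: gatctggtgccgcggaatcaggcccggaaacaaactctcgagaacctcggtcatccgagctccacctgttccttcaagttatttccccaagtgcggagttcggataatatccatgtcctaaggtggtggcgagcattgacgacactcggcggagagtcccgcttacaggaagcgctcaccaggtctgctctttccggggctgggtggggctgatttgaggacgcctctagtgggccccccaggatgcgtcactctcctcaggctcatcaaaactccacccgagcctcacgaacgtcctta
Parp12: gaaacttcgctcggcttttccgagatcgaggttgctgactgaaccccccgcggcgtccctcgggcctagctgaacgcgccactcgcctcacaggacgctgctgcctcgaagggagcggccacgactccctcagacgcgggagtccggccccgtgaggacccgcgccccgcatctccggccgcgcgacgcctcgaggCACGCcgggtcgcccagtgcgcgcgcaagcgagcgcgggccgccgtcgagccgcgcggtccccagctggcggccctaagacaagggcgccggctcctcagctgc

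Tiparp, also known as PARP7, is a target of the aryl hydrocarbon receptor (AHR) and restrains that receptor. Tiparp (ENSMUSG00000034640, chromosome 3, 65528410 to 65555518, plus strand) stood at 152, 165 and 159 CPM after poly(I:C), at 68.0, 64.0 and 67.7 CPM after poly(dA:dT), and at 40.7, 37.25 and 40.6 CPM in mock. Each group stood apart from the others. The rise over mock was 4.01-fold after poly(I:C), with an interval of 3.81 to 4.23 (edgeR, adjusted p = 3.1e-98), and 1.68-fold after poly(dA:dT), with an interval of 1.59 to 1.78 (adjusted p = 4.36e-37). The pseudogene 4931440P22Rik on the opposite strand shares 223 exonic bases with Tiparp, 5.12% of its exons, and had 329 counts in all 9 libraries. The strand setting of the counting was not stated, so reads from both genes in this stretch may not be told apart. The Tiparp start window (chr3:65528197-65528496, plus strand), shown for its tie to the AHR, held 1 XRE match, in capitals and in reverse orientation, 170 bases before the start, and no letters of the other motifs.
Tiparp: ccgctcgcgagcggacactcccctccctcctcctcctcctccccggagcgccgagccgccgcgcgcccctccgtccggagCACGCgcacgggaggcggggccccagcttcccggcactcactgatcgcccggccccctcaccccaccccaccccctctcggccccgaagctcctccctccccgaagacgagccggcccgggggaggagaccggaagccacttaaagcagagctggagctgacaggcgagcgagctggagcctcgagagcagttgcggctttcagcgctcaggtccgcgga

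Of 7 AHR pathway genes, 4 were called higher and 3 lower after poly(I:C) than in mock, against 39.8% and 36.3% of all genes. After poly(dA:dT) 2 were higher and 4 lower, against 26.6% and 26.2% of all genes. The number higher was then 1 when any library other than mock replicate 2 was left out and 0 with DESeq2. The AHR gene itself, Ahr, had a log2 fold change of 0.52 ± 0.07 (SE) after poly(I:C) and of -0.22 ± 0.07 after poly(dA:dT), both called (edgeR, adjusted p = 1.15e-11 and 0.00751), and was higher after poly(I:C) than after poly(dA:dT) by 0.74 ± 0.07 (adjusted p = 1.64e-18). Ahrr, a repressor of the receptor, rose 1.87-fold after poly(I:C). Cyp1a1, a classic target enzyme of the receptor, rose 4.64-fold after poly(I:C) at a low level, with 116 counts over the 3 poly(I:C) libraries and 29 over the 3 mock libraries. The call of Cyp1a1 after poly(dA:dT) (edgeR, adjusted p = 0.0493) was kept in only 3 of 16 alternatives. Nqo1, another target, fell to 24.3 ± 0.915 CPM after poly(I:C), against 40.4 ± 2.87 CPM in mock (SD, n = 3). Cyp1b1, a further target, was called lower than in mock after both mimics, by 0.10 and 0.21 on the log2 scale, but its log2 fold change after poly(I:C) was 0.01 with total counts. It was named after its values were seen.

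Parp9 and Parp14 encode macrodomain proteins, and Dtx3l encodes the ubiquitin ligase that partners with Parp9. The 3 genes form a cluster of 140 kb on chromosome 16. Parp9 (ENSMUSG00000022906, 35938470 to 35972605, plus strand) stood at 119.8, 118 and 118 CPM after poly(I:C), at 25.0, 22.9 and 24.4 CPM after poly(dA:dT), and at 14.4, 14.45 and 16.6 CPM in mock. Dtx3l (ENSMUSG00000049502, 35926511 to 35939151, minus strand) stood at 113, 104 and 103 CPM after poly(I:C), at 20.3, 20.2 and 21.9 CPM after poly(dA:dT), and at 9.09, 10.5 and 9.26 CPM in mock. Both genes had groups that did not overlap. Over mock Parp9 rose 7.89-fold after poly(I:C) (95% interval 7.38 to 8.45, edgeR, adjusted p = 1.03e-106) and 1.60-fold after poly(dA:dT) (1.47 to 1.75, adjusted p = 3.61e-19). Dtx3l rose 11.1-fold after poly(I:C) (10.25 to 11.96, adjusted p = 4.97e-108) and 2.16-fold after poly(dA:dT) (1.957 to 2.388, adjusted p = 9.36e-31). The intervals of the pair were apart in both comparisons with mock.

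Parp14, a macrodomain mono-ADP-ribosyltransferase (ENSMUSG00000034422, 35832874 to 35871544, minus strand), stood at 129, 122 and 120.1 CPM after poly(I:C), at 9.92, 11.6 and 11.2 CPM after poly(dA:dT), and at 5.26, 3.53 and 3.95 CPM in mock. Its groups did not overlap, and it had the largest fold changes of the 9 in all 3 comparisons. The rise over mock was 28.6-fold after poly(I:C), with an interval of 26.1 to 31.3 (edgeR, adjusted p = 1.69e-110). The SE behind this interval is too small for so large a change. Over the 17 alternatives the log2 fold change of Parp14 ran from 4.70 to 5.05. After poly(dA:dT) the rise over mock was 2.53-fold, with an interval of 2.20 to 2.91 (adjusted p = 1.42e-24). The level after poly(I:C) was 11.3 times that after poly(dA:dT), with an interval of 10.5 to 12.2 (adjusted p = 5.26e-101).

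Parp9 and Dtx3l lie head to head on opposite strands, and their annotated genes overlap by 682 bases, 458 of them exonic in both. The shared bases make up 9.4% of the Parp9 exons and 8% of the Dtx3l exons. The handling of reads in this stretch was not given in the sources used here, so they may not be told apart. The ratio of Dtx3l to Parp9 counts was 0.941, 0.881 and 0.869 in poly(I:C) libraries, 0.812, 0.881 and 0.897 in poly(dA:dT) libraries, and 0.632, 0.727 and 0.557 in mock libraries. It was thus higher in each treated library than in any mock library, while both treated groups overlapped. The mean log2 difference from mock was 0.50 for poly(I:C) and 0.44 for poly(dA:dT) (two-sided exact permutation test, p = 0.1 each, the smallest that 3 against 3 libraries allow). Between poly(I:C) and poly(dA:dT) it was 0.06 (exact permutation test, p = 0.5).

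**Figure D2:**
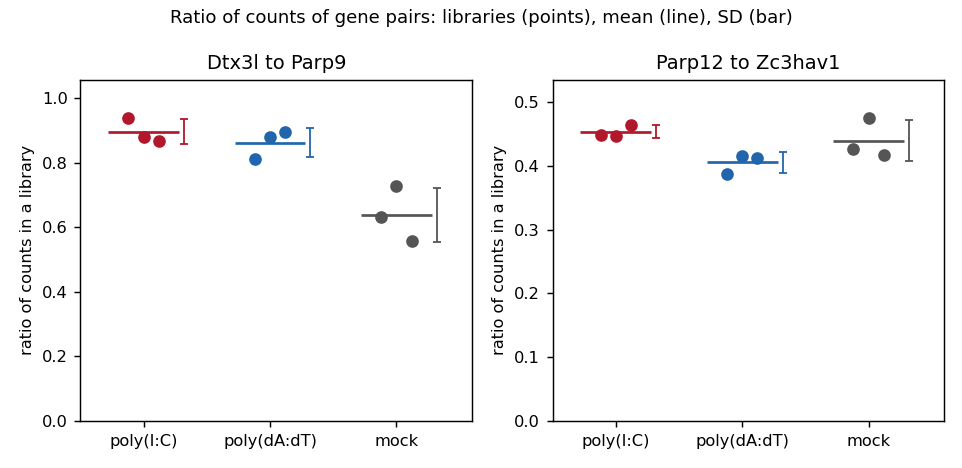
Ratio of Dtx3l to Parp9 counts (left) and of Parp12 to Zc3hav1 counts (right) within each library of the poly(I:C), poly(dA:dT) and mock groups. Points are libraries, lines are means and bars are SD of 3 libraries; the Dtx3l to Parp9 ratio is 0.812 to 0.941 in treated libraries and 0.557 to 0.727 in mock libraries.

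The Dtx3l start window (chr16:35938978-35939277, minus strand) lies inside the annotated span of Parp9 and is shown because it covers a stretch where this pair overlaps. It held no ISRE, GAS or NF-kB letters and 1 XRE match, in capitals, 50 bases before the start.
Dtx3l: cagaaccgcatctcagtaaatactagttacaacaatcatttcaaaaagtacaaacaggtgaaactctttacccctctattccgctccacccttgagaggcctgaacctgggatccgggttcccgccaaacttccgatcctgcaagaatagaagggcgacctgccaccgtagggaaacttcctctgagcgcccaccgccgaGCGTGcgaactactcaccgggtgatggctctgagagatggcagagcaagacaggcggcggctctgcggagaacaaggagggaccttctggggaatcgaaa

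The outer neighbours of the chromosome 16 cluster changed less. Hspbap1, the next protein-coding gene beyond Parp14, rose 1.46-fold after poly(I:C) and 1.32-fold after poly(dA:dT) (edgeR, adjusted p = 1.39e-14 and 1.26e-08). Kpna1, an importin gene 6144 bases beyond Parp9, had log2 fold changes of -0.10 ± 0.04 (SE) after poly(I:C) and -0.03 ± 0.03 after poly(dA:dT), and the first was called (adjusted p = 0.00965). Zc3hav1l, a paralogue of Zc3hav1 that lies 6026 bases from it, moved the other way after poly(I:C), to 14.8 ± 0.939 CPM, against 23.5 ± 0.992 CPM in mock (SD, n = 3, log2 fold change -0.67 ± 0.07 SE, adjusted p = 6.49e-16). After poly(dA:dT) it stood at 23.8 ± 1.3 CPM and was not called (adjusted p = 0.822). Ttc26, on the other side of Zc3hav1, rose 1.28-fold and 1.27-fold. Kdm7a, beside Parp12, was not called after either mimic (adjusted p = 0.462 after poly(I:C) and 0.857 after poly(dA:dT)), and Tbxas1 on its other side was too low to test. Ssr3, beside Tiparp, and Emb, beside Parp8, had log2 fold changes over mock of -0.63 ± 0.02 and -0.57 ± 0.06 (SE) after poly(I:C), both called (adjusted p = 6.08e-65 and 5.43e-15). Grina, Ccnd2 and Lekr1, beside Parp10, Parp11 and Tiparp, were not called after poly(I:C) (adjusted p = 0.585, 0.155 and 0.214). With poly(dA:dT) Ssr3, Emb and Grina had log2 fold changes over mock of -0.28 ± 0.02, -0.33 ± 0.06 and -0.12 ± 0.02 (SE), all called (adjusted p = 1.39e-26, 1.24e-06 and 9.79e-06), while Ccnd2 and Lekr1 were not (adjusted p = 0.0709 and 0.988). Isl1 and Cracr2a were too low to test.

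**Figure D3:**
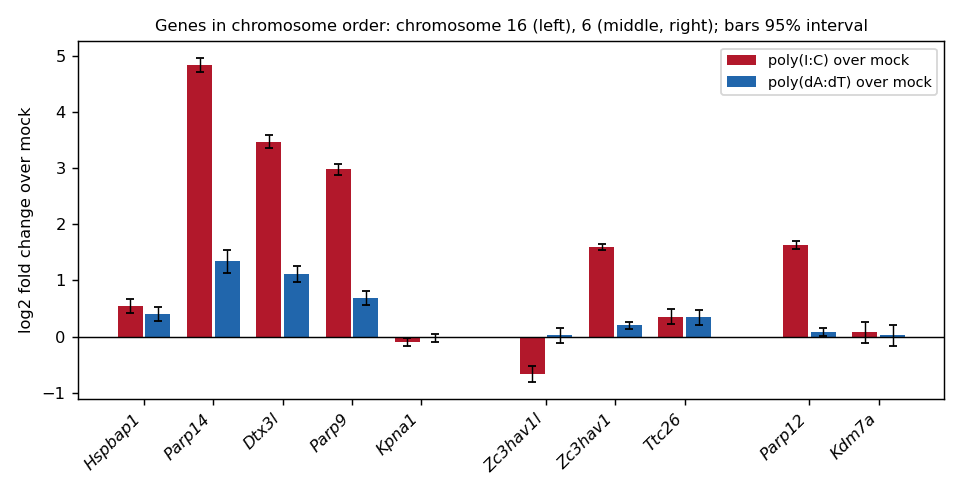
Log2 fold change over mock (vertical axis) after poly(I:C) and after poly(dA:dT) for members and the nearest protein-coding genes in chromosome order, with 95% intervals. After poly(I:C) Parp14, Dtx3l and Parp9 rise by 4.84, 3.47 and 2.98, against 0.55 for Hspbap1 and -0.10 for Kpna1, and Zc3hav1l falls beside Zc3hav1.

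Parp10, Parp8 and Parp11 encode further mono-ADP-ribosyltransferases. Parp10 (ENSMUSG00000063268, chromosome 15, 76231174 to 76243441, minus strand) stood at 187, 184 and 192 CPM after poly(I:C), at 58.0, 59.5 and 57.9 CPM after poly(dA:dT), and at 41.0, 38.0 and 43.6 CPM in mock. It rose over mock 4.604-fold after poly(I:C) (95% interval 4.38 to 4.84, edgeR, adjusted p = 7.68e-107) and 1.44-fold after poly(dA:dT) (1.35 to 1.52, adjusted p = 3.3e-23). Its groups did not overlap. Plec, an abundant gene on the same strand that shares 205 exonic bases with Parp10, had a log2 fold change over mock of -0.20 ± 0.03 (SE) after poly(I:C) and of 0.13 ± 0.03 after poly(dA:dT).

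Parp8 (ENSMUSG00000021725, chromosome 13, 116854820 to 117025537, minus strand) stood at 72.3, 75.0 and 67.4 CPM after poly(I:C), at 36.4, 34.0 and 36.6 CPM after poly(dA:dT), and at 25.4, 25.4 and 25.8 CPM in mock. It rose over mock 2.81-fold after poly(I:C) (interval 2.63 to 3.01, edgeR, adjusted p = 4.8e-65) and 1.40-fold after poly(dA:dT) (1.297 to 1.503, adjusted p = 1.92e-14). The interval of Parp8 overlapped that of Zc3hav1 after poly(I:C) and lay above it after poly(dA:dT). Its groups did not overlap.

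Parp11 (ENSMUSG00000037997, chromosome 6, 127446840 to 127494261, plus strand) stood at 30.3, 28.8 and 29.5 CPM after poly(I:C), at 21.75, 20.8 and 22.1 CPM after poly(dA:dT), and at 17.3, 16.8 and 18.7 CPM in mock. It had the smallest rise of the 9 after poly(I:C), 1.69-fold (interval 1.54 to 1.84, edgeR, adjusted p = 2.38e-21), and rose 1.23-fold after poly(dA:dT) (1.121 to 1.352, adjusted p = 7.95e-05). Even so, its 3 groups did not overlap. The first of its 2 start windows (chr6:127446590-127446889, plus strand) is shown because it was the only one of the 7 windows with the ISRE letters. These begin 44 bases before the start, in reverse orientation, and share their last 3 bases with a GAS match. A match of both NF-kB forms begins 120 bases before the start, in reverse orientation. The capitals mark these matches. The second window (chr6:127453377-127453676) held 2 XRE matches and none of the other letters.
Parp11: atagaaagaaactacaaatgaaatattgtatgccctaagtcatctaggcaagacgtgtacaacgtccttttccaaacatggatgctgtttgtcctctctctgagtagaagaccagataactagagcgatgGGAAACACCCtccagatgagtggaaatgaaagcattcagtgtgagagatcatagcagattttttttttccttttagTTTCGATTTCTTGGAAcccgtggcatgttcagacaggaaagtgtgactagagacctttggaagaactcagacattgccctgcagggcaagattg

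**Figure D4:**
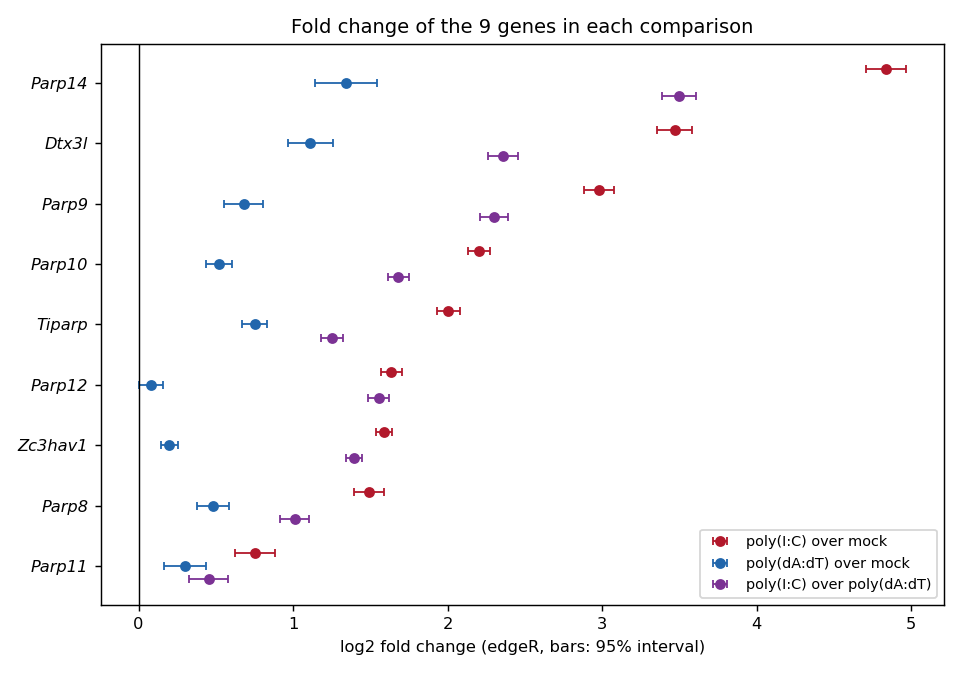
Log2 fold change (horizontal axis) of the 9 genes for poly(I:C) over mock, poly(dA:dT) over mock and poly(I:C) over poly(dA:dT), from edgeR with 95% intervals. Genes are ordered by their change after poly(I:C), from 4.84 for Parp14 to 0.75 for Parp11; the interval of Parp12 after poly(dA:dT) begins just above 0.

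At the same dose and time, poly(I:C) and poly(dA:dT) differed by unequal amounts across the group. The level after poly(I:C) was 5.12 times that after poly(dA:dT) for Dtx3l and 4.93 times for Parp9, with intervals of 4.79 to 5.48 and 4.63 to 5.25 that overlap. It was 3.21 times for Parp10, 2.93 times for Parp12, 2.63 times for Zc3hav1 and 2.38 times for Tiparp, and the intervals of Parp10 and Parp12 overlap while those of Zc3hav1 and Tiparp do not. Parp8 was 2.02 times and Parp11 1.37 times as high after poly(I:C), with intervals of 1.89 to 2.15 and 1.25 to 1.49. All 9 differences were called (edgeR, adjusted p = 3.57e-10 for Parp11 and lower for the others). The order of the genes was not the same after each mimic: Tiparp rose more than Parp9 and Parp10 after poly(dA:dT), by 0.75 ± 0.04 (SE) against 0.68 ± 0.06 and 0.52 ± 0.04 on the log2 scale, and less than both after poly(I:C), by 2.00 ± 0.04 against 2.98 ± 0.05 and 2.20 ± 0.04. The interval of Tiparp after poly(dA:dT) overlapped that of Parp9 and not that of Parp10.

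Levels of different genes were compared as CPM per kb of merged exon. After poly(I:C) the order was Zc3hav1 at 61.4 ± 0.544, Parp12 at 45.4 ± 0.601, Parp10 at 43.9 ± 0.917, Tiparp at 36.4 ± 1.54, Parp9 at 24.4 ± 0.188, Dtx3l at 18.6 ± 0.942, Parp14 at 13.3 ± 0.5, Parp8 at 8.06 ± 0.431 and Parp11 at 4.20 ± 0.102 CPM per kb (SD, n = 3), and no neighbours in this order overlapped. After poly(dA:dT) it ran from Zc3hav1 at 23.4 ± 0.468 to Parp14 at 1.17 ± 0.0945 CPM per kb, and Parp12 and Tiparp overlapped, at 15.5 ± 0.471 and 15.3 ± 0.509. In mock it ran from Zc3hav1 at 20.5 ± 1.11 to Parp14 at 0.456 ± 0.0972 CPM per kb, and Parp10 and Tiparp overlapped, at 9.56 ± 0.659 and 9.07 ± 0.453. Parp14 was thus last in mock and after poly(dA:dT) and seventh after poly(I:C). The level depends on the length used: with the longest transcript in place of merged exons, Parp8 stood above Dtx3l and Parp14 after poly(I:C), at 20.8, 20.1 and 16.7 CPM per kb. After poly(dA:dT) Parp10 then stood above Tiparp, at 17.1 and 15.9, Parp8 above Parp9, at 10.4 and 6.80, and Parp11 above Dtx3l, at 5.75 and 3.92 CPM per kb. In mock Parp8 and Parp11 then stood above Parp9, at 7.43, 4.69 and 4.27 CPM per kb.

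The genes with profiles most like each member were found by the Euclidean distance between log2 CPM values, centred per gene over the 9 libraries, among 12724 other protein-coding genes. All distances rest on the same 9 libraries in 3 groups and are a description only. Zc3hav1 was the gene eighth nearest to Parp12, at a distance of 0.266, and Parp12 ranked 13 from Zc3hav1. Dtx3l ranked 23 from Parp9 and Parp9 ranked 20 from Dtx3l, at 0.727. The nearest genes overall were Noct, Rfx5 and Sgms2 for Zc3hav1 (0.148 to 0.179), Cd40, H2-D1 and Bst2 for Parp12 (0.205 to 0.226), Ikbke, Rbm43 and Zfp672 for Tiparp (0.226 to 0.263), and Ddx58, Hist1h4j and Stat2 for Dtx3l (0.201 to 0.401). For Parp9 they were Rnf213, Nos2 and Nfkbie (0.251 to 0.512), for Parp10 Ccl2, Tor3a and Tnfaip2 (0.192 to 0.234), for Parp8 Snai2, Errfi1 and Nfkbia (0.163 to 0.191), and for Parp11 Pgghg, Pick1 and Rtel1 (0.108 to 0.11). For Parp14 they were Nr3c2, Igtp and Oas1a, at 0.632 to 0.7. Profiles were not scaled, so distances grow with the size of a change and with spread, and cannot be compared between members.

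The other PARP enzymes, among them enzymes of DNA repair and telomeres, had a smaller median change than the 9 genes. Some rose more than the least changed of the 9. Of 8 such genes tested, 6 rose and 2 fell after poly(I:C), 1 of them at least 2-fold, with a median log2 fold change of 0.44. Against mock, poly(dA:dT) gave 6 that rose and 2 that fell, with a median of 0.26. With total counts 1 fell, and Parp1 was not called. Of all genes, 39.8% were called higher and 36.3% lower after poly(I:C), and 26.6% and 26.2% after poly(dA:dT). A rise of at least 2-fold after poly(I:C) was found for 13.1% of all genes. Parp3, which acts in DNA break repair, stood at 63.7 ± 2.6 CPM after poly(I:C), 37.4 ± 0.817 CPM after poly(dA:dT) and 28.4 ± 0.574 CPM in mock (SD, n = 3), a 2.25-fold rise after poly(I:C) (edgeR, adjusted p = 3.66e-52). Parp4, the vault PARP, and Parp6 rose 1.85-fold and 1.83-fold after poly(I:C). The fold changes of these 3 genes lay above that of Parp11 after poly(I:C), and above those of Parp11, Zc3hav1 and Parp12 after poly(dA:dT), where Parp4, Parp3 and Parp6 rose by 0.49, 0.40 and 0.38 on the log2 scale. The genes that fell were Parp1, the main DNA damage sensor of the family, with a log2 fold change of -0.27 ± 0.02 (SE) after poly(I:C), and the tankyrase gene Tnks2, with -0.56 ± 0.02. Both were chosen after their values were seen.

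Genes listed as ZAP partners or for RNA decay, Zc3hav1l and Rnf135 included, moved in both directions, as did genes in general. Of these 13 genes, 9 rose and 4 fell after poly(I:C), against 39.8% and 36.3% of all genes. After poly(dA:dT) 6 rose and 3 fell, against 26.6% and 26.2% of all genes, and total counts gave 8 and 1. Those that fell after poly(I:C) were Zc3hav1l, Exosc5, Exosc7 and Ddx17, with log2 fold changes of -0.67, -0.37, -0.225 and -0.18. Exosc5, Exosc7 and Ddx17 were named after their values were seen. Trim25, the ubiquitin ligase that ZAP needs for its activity, stood at 326 ± 4.17 CPM after poly(I:C), 94.2 ± 2.23 CPM after poly(dA:dT) and 48.7 ± 2.13 CPM in mock (SD, n = 3). Its rises were 6.71-fold and 1.94-fold (edgeR, adjusted p = 5.97e-131 and 1.34e-57), larger than those of Zc3hav1, whose intervals were apart from it. Khnyn, a nuclease cofactor of ZAP, rose 1.46-fold after poly(I:C) and 1.36-fold after poly(dA:dT), and the difference between the mimics was not called (log2 fold change 0.11 ± 0.06 SE, adjusted p = 0.146). N4bp1, a related nuclease, rose 1.80-fold and 1.17-fold. Rnf135, a ubiquitin ligase of RIG-I, rose 2.88-fold and 1.21-fold. The decapping gene Dcp2 rose 1.40-fold after poly(I:C) and had a log2 fold change of -0.22 ± 0.04 (SE) after poly(dA:dT), both called (adjusted p = 1.43e-22 and 5.55e-06), and the difference between the mimics was called as well (0.70 ± 0.04, adjusted p = 9.01e-35).

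**Figure D5:**
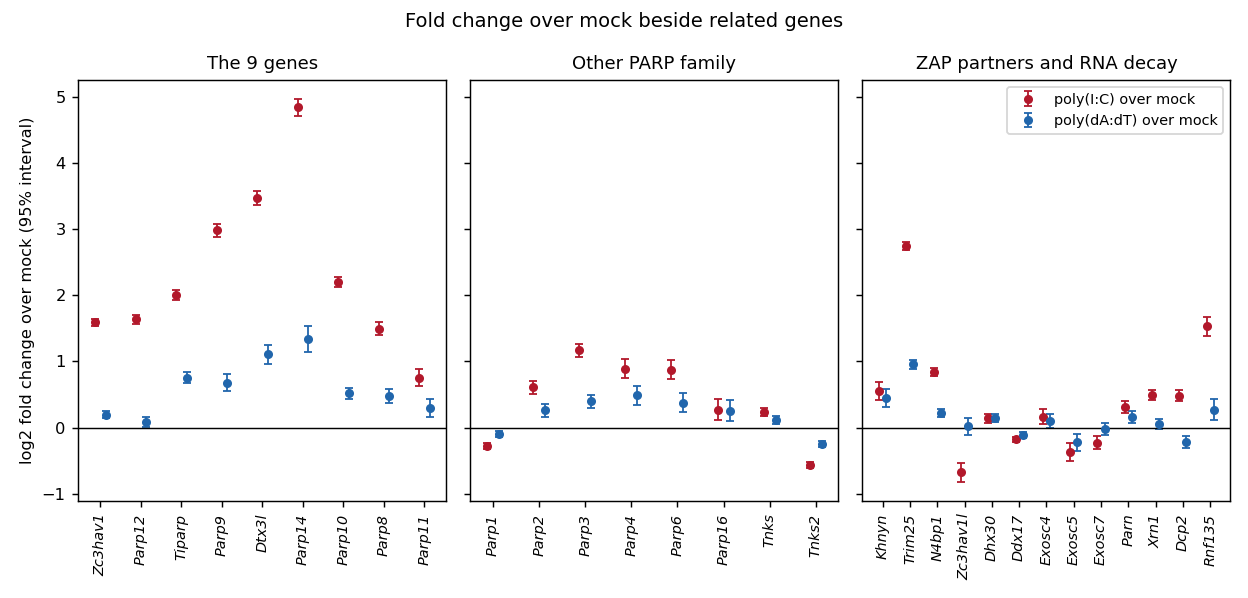
Log2 fold change over mock (vertical axis) after poly(I:C) and after poly(dA:dT) for the 9 genes, the other PARP family genes and the ZAP partner and RNA decay genes, from edgeR with 95% intervals. Trim25 rises by 2.75 after poly(I:C), while Tnks2 and Zc3hav1l fall by 0.56 and 0.67.

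Enzymes that remove ADP-ribose changed little. Of 6 such genes, 3 rose and 1 fell after poly(I:C), against 39.8% and 36.3% of all genes. With total counts these numbers were 4 and 0. The filter of 50 counts in 3 libraries gave 4 that rose, and DESeq2 gave 2. The median log2 fold change of the 6 was 0.10. Oard1, which removes ADP-ribose from glutamate and aspartate, rose 1.38-fold, and Adprhl2, which removes it from serine, rose 1.33-fold (edgeR, adjusted p = 8.51e-12 and 2.09e-13). Macrod1 had a log2 fold change of -0.32 ± 0.10 (SE), called in 16 of 17 alternatives. With poly(dA:dT) 1 rose (Adprhl2) and 2 fell (Macrod1 and Adprh), against 26.6% and 26.2% of all genes. The number that fell was 1 when mock replicate 1, mock replicate 2 or either of poly(dA:dT) replicates 2 and 3 was left out, and with upper-quartile factors. Total counts gave 3 that rose and 1 that fell.

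Of 8 genes that supply NAD, the substrate of these enzymes, 4 rose and 1 fell after poly(I:C), against 39.8% and 36.3% of all genes. The number that rose was 6 with total counts and 5 with upper-quartile factors. It was 3 without a filter, under the filter of 50 counts in 3 libraries and with DESeq2. It was also 3 without mock replicate 2 or without poly(I:C) replicate 3. With poly(dA:dT) 3 rose and 1 fell, against 26.6% and 26.2% of all genes. DESeq2 gave 2 that rose, as did leaving out replicate 1 of mock or of poly(dA:dT). It was 4 with upper-quartile factors, with total counts, with only the 2 groups compared and without poly(dA:dT) replicate 2. Nampt, the rate-limiting enzyme of NAD salvage, stood at 118 ± 2.06 CPM after poly(I:C), 78.1 ± 3.54 CPM after poly(dA:dT) and 72.5 ± 1.24 CPM in mock (SD, n = 3), and rose 1.63-fold after poly(I:C) (edgeR, adjusted p = 1.41e-43). Nadsyn1, an NAD synthetase gene, rose 2.97-fold and 1.90-fold, and Nmnat3, a mitochondrial NAD synthesis enzyme, rose 1.53-fold and 1.45-fold. The NAD kinase gene Nadk fell by 0.39 and 0.13 on the log2 scale, and was not called after poly(dA:dT) with total counts.

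The Deltex relatives of Dtx3l changed by less than 1.5-fold. All 3 tested rose after poly(I:C), against 39.8% of all genes. Dtx4 rose 1.32-fold and Dtx3 1.31-fold, and Dtx1 was too low to test. With poly(dA:dT) 1 of the 3 rose, against 26.6% of all genes. This was Dtx2 (1.09-fold, edgeR, adjusted p = 0.0255), a call kept in 10 of 17 alternatives. Of the 3 genes, 0 rose when mock replicate 1, mock replicate 3 or either of poly(dA:dT) replicates 2 and 3 was left out, 2 rose without mock replicate 2, and 3 rose with total counts. Of 6 genes of interferon signalling, 5 rose and 1 fell after poly(I:C), against 39.8% and 36.3% of all genes. After poly(dA:dT) 4 rose, against 26.6% of all genes, and both receptor genes, Ifnar1 and Ifnar2, were not called. The gene that fell, Ifnar1, had a log2 fold change of -0.08 ± 0.04 (SE, adjusted p = 0.0374), was called in 11 of 17 alternatives and was at 0.03 with total counts. It was not called without mock replicate 1, poly(I:C) replicate 2 or poly(I:C) replicate 3. Ifnb1, the interferon-beta gene, had 5360 counts over the 3 poly(I:C) libraries, 325 over the 3 poly(dA:dT) libraries and 1 over the 3 mock libraries. Stat2 and Irf9, partners in the factor that binds the ISRE, rose 12.7-fold and 11.3-fold after poly(I:C), and 2.32-fold and 2.87-fold after poly(dA:dT) (edgeR, adjusted p = 5.38e-65 or lower for Stat2 and 2.14e-50 or lower for Irf9).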

How the data were processed

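RNA was sequenced from 9 libraries, 3 per group. The authors deposited 1 file for each library, holding raw counts of reads by Ensembl identifier, with 46603 identifiers and no summary lines. TopHat2 2.1.0, HTSeq and DESeq2 with GRCm38.p4 are named, per the submitters' processing notes, and a TruSeq kit, per the labels' protocols. The annotation release and strand setting were not given in the sources used here. GENCODE M21 held 46091 of the identifiers.

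Counts were tested in 1 fit with a mean per group, using edgeR 4.0.16 in R 4.3.3 (TMM scaling, filterByExpr, robust quasi-likelihood test, two-sided), which left 14176 genes. Log2 fold changes used a prior count of 0.125, and SEs were obtained from the log2 fold change and the F statistic. Such SEs come out too small for large changes. Intervals are nominally 95%, and those of the largest rises are too narrow. The procedure was tested on simulated counts. A total of 3 counts over a library, the limit that a count of 0 allows, equal 0.103 to 0.187 CPM, for counting error only. Replicates differed by more than sampling noise (chi-square per degree of freedom 1.64 to 2.1). The members and lists were chosen with earlier results of these data known. Named genes are all 9 members, their nearest protein-coding neighbours, the 3 genes nearest in profile, and up to 3 called genes per list with the largest changes, of which 1 is not reported here. Alternatives were other scalings, filters, DESeq2 1.42.0, only the groups compared, a replicate block and leaving out each library.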

Additional observations from a re-analysis of the deposited data

How the results depend on the processing

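All results on the 9 genes kept their direction under the 17 alternatives, and every call was kept, with the exception of Parp12 after poly(dA:dT), which was called in 4 of them. The number called higher was 9 after poly(I:C) against mock, 8 to 9 after poly(dA:dT) against mock and 9 between the mimics, and no log2 fold change of the 9 was below 0. With a replicate block these numbers were 9, 8 and 9, and 10724, 7384 and 8905 of all genes were called, against 10787, 7490 and 8981 without it. No pairing by replicate number was seen: deviations of same-numbered libraries correlated between -0.014 and 0.023, and 3 of 9 libraries correlated best with their own number. Sampling noise is part of these deviations, so a shared culture or day could have gone unseen. Total counts in place of TMM moved the median log2 fold change of all genes by 0.114 after poly(I:C), where the smallest change of the 9 genes was 0.75, and by 0.0741 after poly(dA:dT), where Parp12 changed by 0.08 and Zc3hav1 by 0.20. Without a filter and with DESeq2, which tested 25085 and 19048 genes, the poly(I:C) median moved by 0.113 and 0.126. The DESeq2 median also took in genes without an adjusted p. These medians are thus over other sets of genes, and DESeq2 size factors in edgeR, over the same 14176 genes, moved the median by -0.0167. The mean log2 differences in the Dtx3l to Parp9 and Parp12 to Zc3hav1 ratios kept their direction when any library was left out. Where the groups did not overlap, leaving out a library could not have changed the direction. Counting depth does not limit the 9 genes, all with at least 75 counts per library, but Cyp1a1, Dtx1 and Tbxas1 were too low for firm statements.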
